A study of Homo sapiens with 12 samples.

Results

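The hairpin mir-21 gives a pair of mature microRNAs (miRNAs), hsa-miR-21-5p from its 5′ arm and hsa-miR-21-3p from its 3′ arm. Both were chosen by name, as the 2 lines that the deposited table lists under this hairpin, and they are 2 of the 1286 mature names in that table. Both had enough reads to be tested. The libraries are of small RNAs from a DROSHA knockout of HCT116, a cell line from a human colorectal carcinoma. There were 4 groups of 3 libraries, 12 in all. Every group carried the DROSHA knockout and received the plasmid pXC-NLS-DG4. The groups differed in a second plasmid, pCK, which coded for DROSHA with the belt deleted, for the DROSHA mutant m4 or for wild-type DROSHA, or which was empty. The amount was 4.5 µg for pXC-NLS-DG4 and 4.5 µg for the DROSHA plasmid, and no amount was listed for the empty pCK. A 15% gel was used to select RNA of 19 to 24 nt out of 10 µg. What pXC-NLS-DG4 codes for, what is altered in m4, whether the knockout line is a single clone and whether the repeats are separate cultures is not stated in the sources used here. The p-values therefore measure the spread between these libraries, which may be technical. The level of each DROSHA protein was not analysed here.

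DROSHA works with its partner DGCR8 in the nucleus, where it cuts the hairpin out of a long primary transcript. DICER then removes the loop, and usually one arm of the duplex is kept in an Argonaute protein while the other is degraded. miR-21-5p, the arm usually kept, is among the best known miRNAs raised in carcinomas and represses the tumour suppressor PDCD4. A few hairpins are made without DROSHA. Those of miR-877, miR-1224 and miR-1226 are released by splicing, and those of miR-320 and miR-484 are transcribed as short capped RNAs. These 5 served as the reference for scaling the libraries. Reference reads, where summed or set aside below, are those of all 10 DROSHA-independent features listed. The features not used for scaling had at most 40 reads each in any library.

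The mature sequence of miR-21-5p is shown because it is the major of the arms measured below, and those of 3 reference miRNAs because they help to set the scale. The capitals mark the seed, bases 2 to 8, which pairs with targets. The sequences are from RefSeq (GRCh38.p14), in which 1148 of the 1286 mature names of the table, and 1 of the 2 arms of mir-21, were matched.
hsa-miR-21-5p: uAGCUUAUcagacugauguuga
hsa-miR-484: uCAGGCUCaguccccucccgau
hsa-miR-877-5p: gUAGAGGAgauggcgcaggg
hsa-miR-1224-5p: gUGAGGACucgggaggugg
miR-21-5p lies at chr17:59841273-59841294 on the plus strand. Its seed was shared in RefSeq by 1 other mature miRNA, hsa-miR-590-5p, which is not among the 1286 mature names of the table. The hairpin gene MIR21 (ENSG00000284190.1) spans chr17:59841266-59841337 on the plus strand. By GENCODE v29 it lies within the gene VMP1 (chr17:59707192-59842255, same strand), in exon 1 of the retained-intron transcript VMP1-216 and in no other exon of VMP1. The 5p arm covers bases 8 to 29 of the 72 nt hairpin, whose predicted folding energy is -34.60 kcal/mol, and 19 of its 22 bases are paired in that fold.

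Library depth sets the precision of these values. The table held 132667 to 407461 reads per library, and 101886 to 332081 after lines that repeat the same reads had been collapsed, with 649 to 800 miRNAs detected. miR-21-5p had 2559 reads or more in each library, so its counting error was small, whereas miR-21-3p had only 10 to 160 reads. The repeats of a group differed by more than sampling noise, so each was counted as its own library. The m4 library of repeat 2 stood apart: it held 169485 reference reads, against 65508 and 61975 in m4 repeats 1 and 3, and only 14 reads of miR-21-3p. It was also deeper, with 223588 collapsed reads against 101886 and 108035, so part of the gap in reference reads is depth. Markers were used to check the cell type. Of 5 miRNAs of intestinal epithelium all were listed and 2 were tested, with summed scaled reads of 68.6 to 212 with belt deletion, 102 to 141 with m4, 69.9 to 122 with wild type and 46.5 to 59.4 with the empty plasmid. Of 9 markers of other cell types 6 were listed, summing to 569 to 786 with belt deletion, 325 to 628 with m4, 478 to 700 with wild type and 216 to 291 with the empty plasmid. The blood cell markers miR-142-3p and miR-223-3p and the muscle marker miR-133a-3p had no read. The endothelial marker miR-126-3p averaged 404 scaled reads with belt deletion, 150 with m4, 393 with wild type and 9.44 with the empty plasmid. Group means were 112 to 185 for miR-143-3p (smooth muscle), 20.2 to 72.1 for miR-9-5p (neurons) and 45.5 to 78.8 for miR-122-5p (liver). miR-145-5p and miR-1-3p, markers of smooth and striated muscle, had 8 and 3 reads in all. The part of these other markers in the results was not tested.

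miR-21-5p was the major product of the hairpin in every library, and its level followed the DROSHA plasmid. Cells with the belt-deleted protein held about as much of it as cells with wild-type DROSHA, cells with m4 held 9.20% of the wild-type level, and cells with the empty plasmid held 2.54%. Levels are given as scaled reads, which are counts divided by a size factor from the 5 reference features. miR-21-5p had 77692, 79198 and 67740 scaled reads with belt deletion. It had 5666, 7178 and 9495 with m4. It had 92757, 102758 and 47335 with wild-type DROSHA, against 2466, 1780 and 1912 with the empty plasmid. The belt deletion and wild-type libraries overlapped, and every library of these groups was above every m4 library. Every m4 library in turn was above every library with the empty plasmid. These are bulk libraries, so fewer cells making the miRNA and less of it per cell cannot be told apart.

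**Figure D1:**
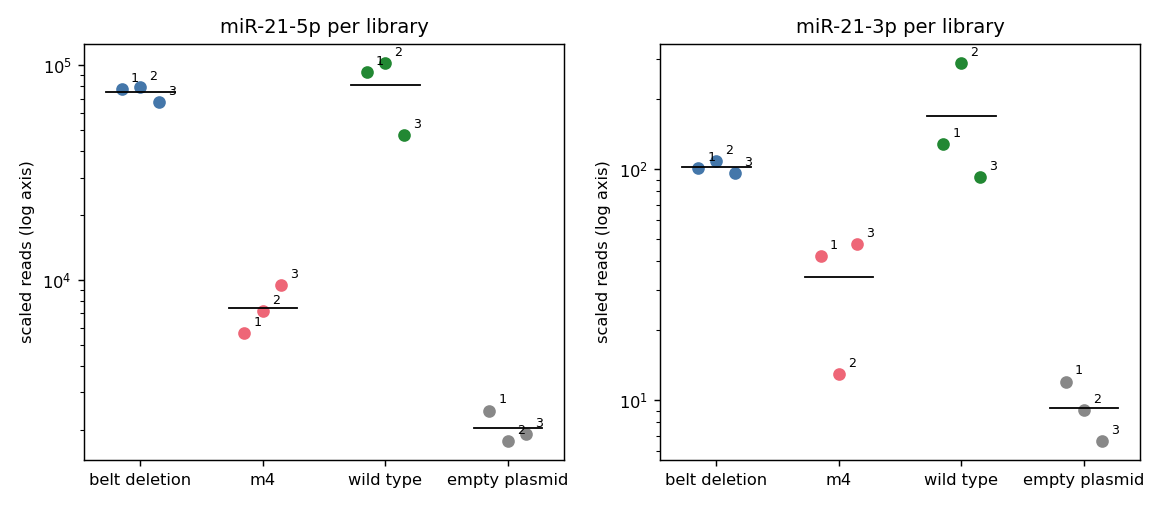
Scaled reads (log axis) of miR-21-5p (left) and miR-21-3p (right) in each library, with the repeat number beside each point and the group mean as a line. Belt deletion and wild type share a range in both panels, m4 lies between them and the empty plasmid, and miR-21-3p has its highest point in wild-type repeat 2 (288) and a low m4 point in repeat 2 (12.9).

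Group means of miR-21-5p were 74877 ± 6226 scaled reads with belt deletion, 7446 ± 1928 with m4, 80950 ± 29538 with wild type and 2052 ± 364 with the empty plasmid (SD, n = 3 each). With wild-type DROSHA the arm rose 39.4-fold over the empty plasmid (log2 fold change 5.30, SE 0.41, 95% interval 4.49 to 6.11). Its adjusted p was 4.89e-19 by edgeR's quasi-likelihood test with Benjamini-Hochberg adjustment over 318 miRNAs. With belt deletion it rose 36.5-fold (5.19, SE 0.40, adjusted p = 1.33e-18 by edgeR). With m4 it rose 3.63-fold (1.86, SE 0.35, adjusted p = 9.17e-06 by edgeR). Calls were common in these comparisons, which share the empty-plasmid libraries: 44.7% of the 318 miRNAs were called higher with wild type, 40.9% with m4 and 44.3% with belt deletion. The size of the rise placed miR-21-5p 31st from the highest with wild type, 92nd with m4 and 27th with belt deletion, where the median miRNA changed by 0.86, 0.86 and 0.80 on the log2 scale in those comparisons.

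The mutants were also set against wild-type DROSHA and against each other, to compare the mature reads of this arm between the DROSHA plasmids. With m4, miR-21-5p fell 10.9-fold below wild type (log2 fold change -3.44, SE 0.37, adjusted p = 3.98e-12 by edgeR). That was the 21st lowest value of 318, in a comparison where 35.8% of miRNAs were called lower and the median was -0.25. Between belt deletion and wild type no change passed the test (-0.11, SE 0.34, adjusted p = 0.860 by edgeR), with 12.6% of all miRNAs called in either direction. The 95% interval of this difference ran from -0.79 to 0.56, that is, from 0.580 to 1.48 times the wild-type level. With belt deletion the arm was 10.1-fold higher than with m4 (3.33, SE 0.37, adjusted p = 1.34e-11 by edgeR), the 20th highest value where 26.4% were called higher.

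These folds depend on the scale. With total counts in place of the reference the log2 fold change of miR-21-5p was 4.46 for wild type and 4.42 for belt deletion against the empty plasmid, -2.36 for m4 against wild type, and 2.32 where belt deletion was set against m4, and with TMM (edgeR's trimmed mean scaling) it was 4.39 for wild type and 1.18 for m4 against the empty plasmid. Scaled by the summed reference reads, m4 against the empty plasmid gave 2.46. Each of these kept its direction and its call, and the small difference between belt deletion and wild type changed sign with TMM (0.05).

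The gain that each protein gave over the empty plasmid can be read against that of wild-type DROSHA, which added 78898 scaled reads of miR-21-5p. Belt deletion added 72824, which is 92.3% of the wild-type gain. m4 added 5394, or 6.84%. Without wild-type repeat 3, belt deletion reached 76.1% and m4 5.64% of the gain of this arm. Without wild-type repeat 2 they reached 107% and 7.93%. For miR-21-3p the wild-type gain was 160 scaled reads, and belt deletion reached 57.6% and m4 15.5% of it. Without wild-type repeat 2 the wild-type gain was 101 scaled reads, and belt deletion reached 91.2% and m4 24.5% of it. These shares are ratios of group means and carry no test of their own.

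In the libraries themselves, miR-21-5p took up 19.5 to 32.8% of all collapsed reads where belt-deleted or wild-type DROSHA was present. Its share was 27.3, 26.3 and 23.9% with belt deletion. With m4 the share was 5.18, 3.47 and 6.87%. It was 27.4, 32.8 and 19.5% with wild type, and 1.31, 1.26 and 1.04% with the empty plasmid. The Wilson 95% intervals were narrow, for example 26.2 to 26.5% in belt deletion repeat 2 and 1.22 to 1.31% in empty-plasmid repeat 2, and they cover counting error only. Among all miRNAs it ranked first or second with belt deletion and with wild type, between rank 3 and rank 4 with m4, and between rank 5 and rank 6 with the empty plasmid. miR-320a-3p, a reference miRNA, was the most abundant of the others in each library, with 17.1 to 48.9% of reads.

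A share of all reads also moves with the reference, which took most reads with the empty plasmid. Of reads outside the reference, miR-21-5p made up 45.4, 41.6 and 44.4% with belt deletion, and 14.5, 14.4 and 16.1% with m4. It made up 41.3, 45.9 and 37.5% with wild type, against 6.35, 6.57 and 6.43% with the empty plasmid. Again m4 lay between the empty plasmid and the other groups, belt deletion and wild type overlapped, and the repeats of m4 and of the empty plasmid lay closer together here than in the share of all reads. On this measure miR-21-5p ranked first in each belt deletion and wild-type library, first or second with m4, and between rank 3 and rank 4 with the empty plasmid.

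**Figure D2:**
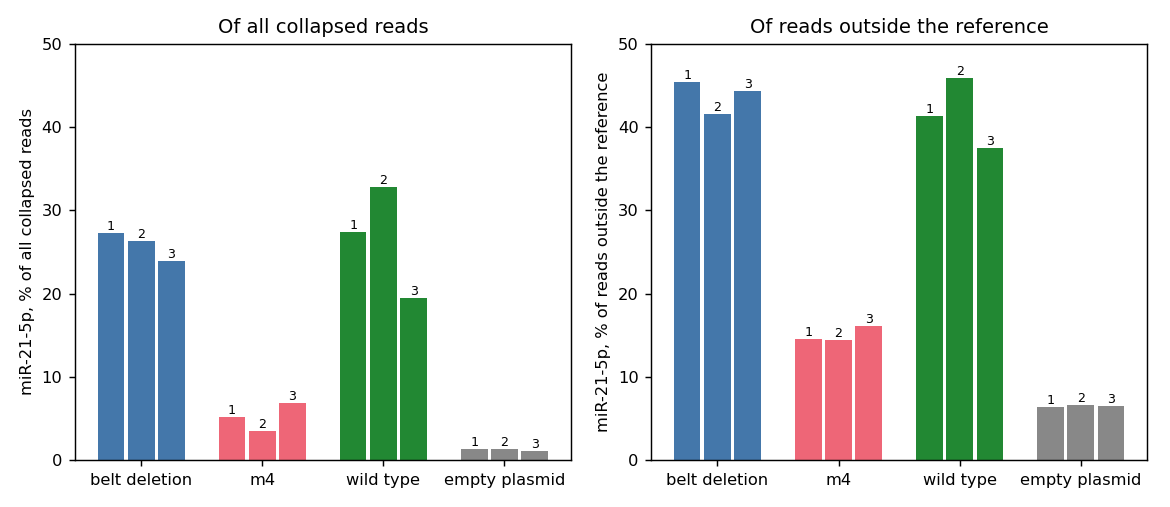
Share of miR-21-5p in each library (bars from 0, repeat number on top), of all collapsed reads (left) and of reads outside the reference (right), in percent. Bars for belt deletion and wild type reach 19.5 to 32.8% on the left and 37.5 to 45.9% on the right, while m4 stays at 6.87% or below on the left and 16.1% or below on the right, above the empty plasmid.

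Since many other miRNAs were called too, miR-21-5p was also set against the sum of all other miRNAs outside the reference, within each library. Compared with the empty plasmid, this ratio was 10.3-fold higher with wild type, and m4 raised it 2.56-fold and belt deletion 11.3-fold. m4 lay 4.03-fold below wild type, and belt deletion lay 4.42-fold above m4. Libraries did not overlap in any of these comparisons, and each gave p = 0.1 in the two-sided exact permutation test, the smallest value that groups of 3 allow. Libraries with belt deletion overlapped those with wild type (log2 difference 0.13, exact permutation p = 0.6). Against the geometric mean of 122 other miRNAs in place of their sum, m4 lay -2.88 from wild type and belt deletion 2.86 from m4 on the log2 scale, compared with -2.01 and 2.14 for the sum. Over the empty plasmid the geometric mean gave a smaller rise with m4, 0.82 compared with 1.35 for the sum. It gave 3.71 with wild type and 3.69 with belt deletion, compared with 3.37 and 3.50.

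The ratio to the summed reads of all 10 listed reference features was then taken within each library, with no size factor. miR-21-5p had 0.683, 0.718 and 0.518 reads per reference read with belt deletion. It had 0.0806, 0.0458 and 0.120 with m4. It had 0.817, 1.14 and 0.407 with wild type, and 0.0166, 0.0156 and 0.0125 with the empty plasmid. The log2 ratio with wild type was 5.61 above that with the empty plasmid, that with m4 2.37 above it and that with belt deletion 5.42 above it, each without overlap (exact permutation p = 0.1). m4 was 9.51-fold below wild type and belt deletion 8.31-fold above m4, again without overlap (exact permutation p = 0.1 each). Belt deletion and wild type overlapped (log2 difference -0.19, exact permutation p = 0.8).

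miR-320 made up nearly all of that sum, so each of the 5 features used for scaling was also used alone. The log2 rise of miR-21-5p with wild type over the empty plasmid was 4.85 against miR-1226 and 5.62 against miR-320, with the other 3 features in between. With belt deletion it lay between 4.79 (miR-1224) and 5.86 (miR-484), and with m4 between 1.42 (miR-1226) and 2.38 (miR-320). m4 was between -4.03 (miR-1224) and -3.24 (miR-320) from wild type. The libraries of the groups did not overlap in these comparisons with any of the 5 features. Belt deletion against wild type ran from -0.80 (miR-1224) to 0.33 (miR-484) and overlapped with each feature, so the sign of this difference depended on the feature chosen.

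**Figure D3:**
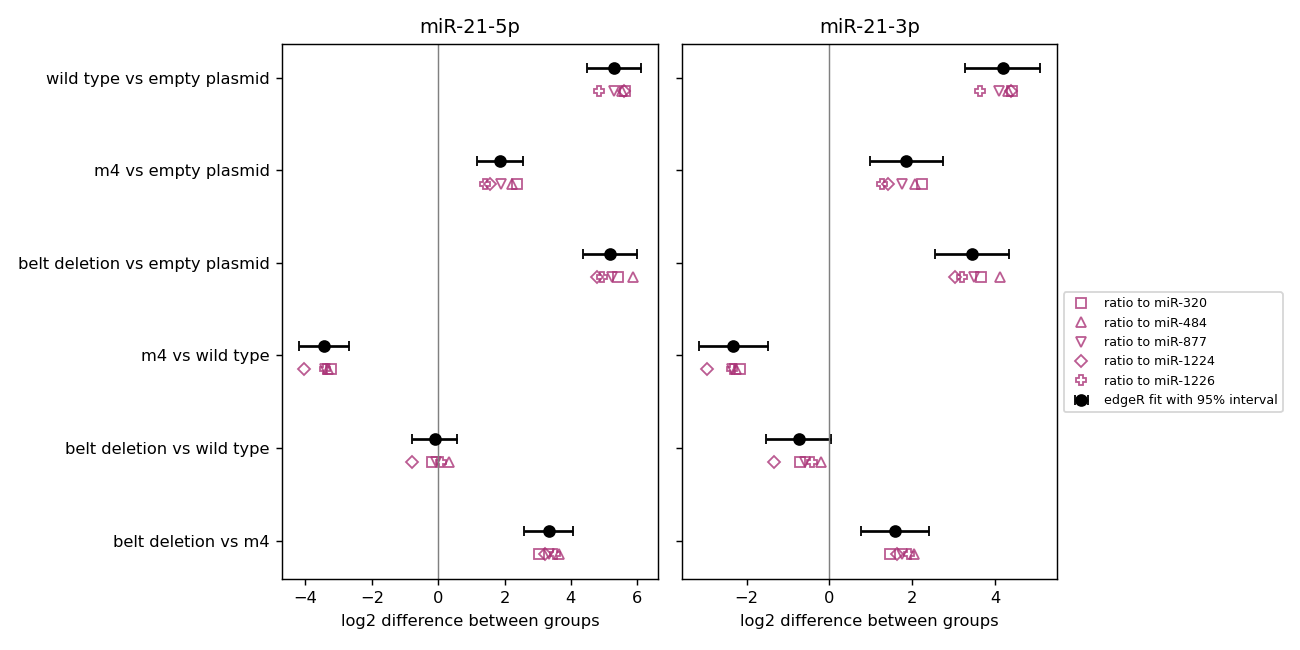
Log2 differences between groups for miR-21-5p (left) and miR-21-3p (right) in the 6 comparisons, as edgeR log2 fold changes with 95% intervals (black) and as ratios to each of 5 reference features alone (open symbols). For miR-21-5p the belt deletion against wild type interval spans 0 (-0.79 to 0.56) and the other 5 do not, and the open symbols lie on the same side of 0 as the fit in those 5.

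miR-21-3p, the arm usually degraded, moved in the same directions at a far lower level. It had 115, 86 and 112 reads with belt deletion, which are 101, 108 and 95.6 scaled reads. With m4 it had 39, 14 and 37 reads, which are 41.9, 12.9 and 47.3 scaled reads. With wild type it had 108, 160 and 82 reads, which are 128, 288 and 92.4 scaled reads. With the empty plasmid it had 16, 13 and 10 reads, which are 12, 9.04 and 6.64 scaled reads. The belt deletion libraries lay close together and within the wild-type range, and m4 repeat 2 came close to the highest empty-plasmid library.

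The 3p arm rose 18.1-fold with wild-type DROSHA over the empty plasmid (log2 fold change 4.18, SE 0.46, adjusted p = 5.5e-12 by edgeR). It rose 10.9-fold with belt deletion (3.45, SE 0.45, adjusted p = 1.14e-09 by edgeR) and 3.63-fold with m4 (1.86, SE 0.44, adjusted p = 0.000425 by edgeR). With m4 it was 4.98-fold lower than with wild type (-2.32, SE 0.42, adjusted p = 6.25e-06 by edgeR). With belt deletion it was 3.00-fold higher than with m4 (1.59, SE 0.41, adjusted p = 0.00162 by edgeR). Between belt deletion and wild type the log2 fold change of -0.73 did not pass the test (SE 0.39, 95% interval -1.52 to 0.05, adjusted p = 0.241 by edgeR).

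Single libraries and the scale carried part of these 3p values. Without wild-type repeat 2 the log2 fold change was 3.58 for wild type against the empty plasmid, -1.73 where m4 was set against wild type, and -0.13 where belt deletion was. The call of belt deletion over m4 was lost with total counts (0.46, adjusted p = 0.404 by edgeR) and with the sum of the reference (1.06, adjusted p = 0.190 by edgeR), and total counts gave -1.13 for m4 against wild type (adjusted p = 0.0416 by edgeR). Against the empty plasmid, TMM gave 3.24 for wild type and 1.22 for m4, summed reference reads gave 2.60 for m4 and total counts 2.67 for belt deletion, each still called. Against single reference features the log2 rise of the 3p arm over the empty plasmid was 3.04 to 4.11 with belt deletion, 1.27 to 2.23 with m4 and 3.63 to 4.40 with wild type, and the m4 and empty-plasmid libraries overlapped against miR-1224. Belt deletion against wild type ran from -1.33 (miR-1224) to -0.20 (miR-484), and its libraries overlapped with each feature but miR-1224. The share of miR-21-3p in collapsed reads averaged 0.0350% with belt deletion, 0.0263% with m4, 0.0559% with wild type and 0.00549% with the empty plasmid. On this share belt deletion and wild type did not overlap (difference -0.0209 percentage points, exact permutation p = 0.1), but without wild-type repeat 2 the difference was -0.00299, and of reads outside the reference the exact permutation p was 0.3. The share overlapped for m4 against the empty plasmid and against wild type (exact permutation p = 0.3 each) and for belt deletion against m4 (exact permutation p = 0.8). Set against the sum of the other miRNAs, the 3p arm was 4.43-fold higher with wild type and 3.36-fold higher with belt deletion than with the empty plasmid, without overlap (exact permutation p = 0.1 each). For m4 against the empty plasmid the libraries overlapped on this measure (log2 difference 1.20, exact permutation p = 0.3), and so they did for m4 against wild type (-0.95, exact permutation p = 0.4).

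The balance of the arms was strongly on the 5p side in every library. There were 768, 734 and 709 reads of miR-21-5p per read of miR-21-3p with belt deletion. There were 135, 555 and 201 with m4. With wild type there were 722, 357 and 512, and with the empty plasmid 205, 197 and 288. The belt deletion libraries were all above the empty-plasmid and m4 libraries, and the wild-type libraries were all above those with the empty plasmid. Among 34 hairpins with a mean of at least 10 reads on each arm, mir-21 had the highest 5p to 3p ratio with wild-type DROSHA (geometric mean 507). The next was let-7a-3 (47.9), a hairpin whose reads also stand under another name. Hairpins with fewer reads on either arm were not ranked, so a ratio near 507 could come only from a very abundant major arm. This rank thus depends on abundance and on the read minimum.

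Read as a share of both arms, miR-21-3p made up 0.130, 0.136 and 0.141% with belt deletion. It made up 0.733, 0.180 and 0.496% with m4, and 0.138, 0.279 and 0.195% with wild type. With the empty plasmid it made up 0.486, 0.505 and 0.346%. The Wilson 95% interval of m4 repeat 1, 0.537 to 1.00%, did not meet that of m4 repeat 2, 0.107 to 0.302%, so the m4 repeats differed by more than counting error. The means were 0.136 ± 0.00542% with belt deletion, 0.470 ± 0.278% with m4, 0.204 ± 0.0710% with wild type and 0.446 ± 0.0868% with the empty plasmid (SD, n = 3 each).

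**Figure D4:**
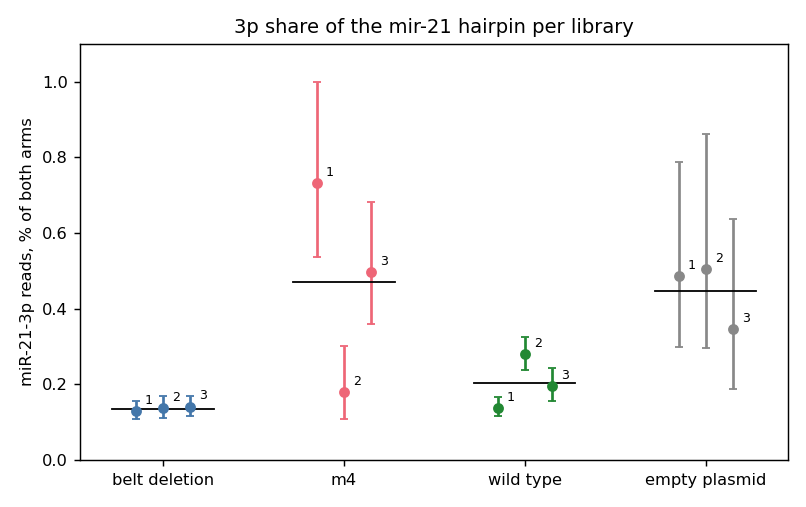
Reads of miR-21-3p in percent of both mir-21 arms in each library, with Wilson 95% intervals (counting error only), the repeat number beside each point and the group mean as a line. Belt deletion lies between 0.130 and 0.141%, below all empty-plasmid libraries (0.346 to 0.505%), and m4 spreads from 0.180 to 0.733%.

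The 5p to 3p ratio was compared between groups by limma over the 34 hairpins, which needs no size factor. It was 3.37-fold higher with belt deletion than with the empty plasmid (log2 change 1.75, SE 0.47, adjusted p = 0.0214 by limma), in a comparison where 23.5% of hairpins were called in either direction. This call was lost when any of 5 single libraries was left out, each of the belt deletion repeats and empty-plasmid repeats 1 and 2, while the log2 change stayed between 1.65 and 1.92. With wild type the ratio was 2.33-fold that with the empty plasmid, which did not pass the test (1.22, SE 0.47, adjusted p = 0.0841 by limma), where 20.6% were called. Without m4 repeat 2, which is in neither group but enters the shared spread, it was called (adjusted p = 0.0129 by limma). With belt deletion against m4 the change was 1.60 (SE 0.47, adjusted p = 0.0700 by limma), where 8.82% were called, and without m4 repeat 2 it was 2.17 with an adjusted p of 0.00225.

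The other comparisons of the ratio also missed the threshold. m4 against wild type gave -1.07 (SE 0.47, 95% interval -2.13 to 0.00, adjusted p = 0.212 by limma) where 11.8% were called, and without m4 repeat 2 it gave -1.64 with an adjusted p of 0.0138. Belt deletion against wild type gave 0.53 (95% interval -0.53 to 1.60, adjusted p = 0.474 by limma) where 5.88% were called. m4 against the empty plasmid gave 0.15 (95% interval -0.92 to 1.22, adjusted p = 0.948 by limma) where 2.94% were called, and its sign changed without m4 repeat 2. Of the 34 hairpins, 18 had reads that also stand under another name, and in 5 both arms held the same reads. With the 18 left out, 16 hairpins were tested, and the adjusted p by limma was 0.0418 for wild type and 0.00267 for belt deletion against the empty plasmid and 0.00776 for belt deletion against m4. By the exact permutation test for mir-21 alone, these last 3 comparisons had no overlap and p = 0.1 each.

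miRNAs with a profile like that of each arm were found over the 12 libraries, by the root mean square difference of log2(scaled reads + 1) after centring, among 114 miRNAs with a mean of at least 50 scaled reads. For miR-21-5p the nearest were miR-378a-3p (0.19), miR-378c (0.20), miR-103a-3p (0.32), miR-107 (0.34) and miR-26a-5p (0.39). Their sequences are shown so that the likeness can be read beside the letters, again from RefSeq with the seed in capitals.
hsa-miR-378a-3p: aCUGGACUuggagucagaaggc
hsa-miR-378c: aCUGGACUuggagucagaagagugg
hsa-miR-103a-3p: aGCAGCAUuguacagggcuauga
hsa-miR-107: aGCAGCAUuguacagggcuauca
hsa-miR-26a-5p: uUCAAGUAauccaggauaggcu
miR-378a-3p and miR-378c share a seed and most of their letters, and so do miR-103a-3p and miR-107. The counting may have divided reads between the members of each pair or counted the same reads under both names. The profiles of a pair may therefore not be separate observations. None has the seed of miR-21-5p. miR-378a-3p averaged 1451 ± 263 scaled reads with belt deletion, 130 ± 35.3 with m4, 1499 ± 475 with wild type and 47.8 ± 8.38 with the empty plasmid (SD, n = 3 each). miR-26a-5p averaged 992 ± 49.0 scaled reads with belt deletion, 143 ± 33.7 with m4, 1252 ± 288 with wild type and 48.3 ± 6.46 with the empty plasmid.

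**Figure D5:**
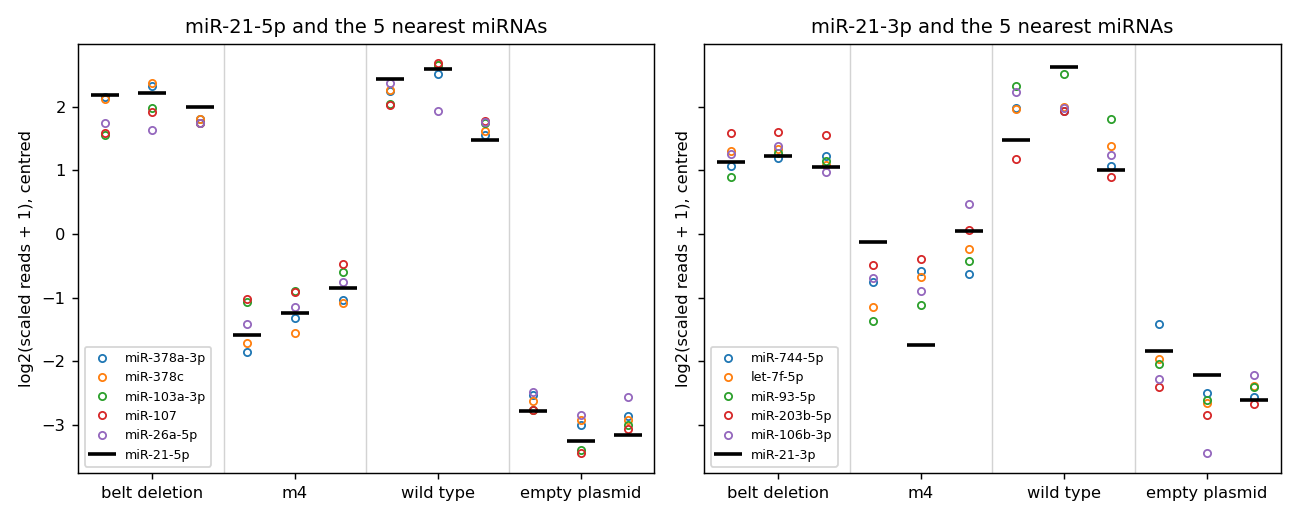
Profiles over the 12 libraries of miR-21-5p (left) and miR-21-3p (right), as black bars, with the 5 nearest miRNAs of each as circles, in log2(scaled reads + 1) centred on each miRNA's own mean. Libraries run from repeat 1 to 3 within each group, and the circles lie closer to miR-21-5p (differences of 0.19 to 0.39) than to miR-21-3p (0.52 to 0.59), whose bar stands below all circles in m4 repeat 2.

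For miR-21-3p the nearest were miR-744-5p (0.52), let-7f-5p (0.53), miR-93-5p (0.57), miR-203b-5p (0.57) and miR-106b-3p (0.59). The arms of mir-21 differed from each other by 0.90 on this measure, more than each differed from its nearest miRNAs. miR-744-5p averaged 108 ± 5.57 scaled reads with belt deletion, 30.0 ± 1.86 with m4, 160 ± 50.7 with wild type and 10.8 ± 5.67 with the empty plasmid (SD, n = 3 each). let-7f-5p averaged 1196 ± 111 scaled reads with belt deletion, 322 ± 99.4 with m4, 1756 ± 392 with wild type and 101 ± 24.8 with the empty plasmid. The counting error of 10 to 160 reads adds to every distance from miR-21-3p.

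miR-21-5p was also placed among 20 miRNAs known to be raised in colorectal carcinoma, a list chosen with earlier results of these data known. All 20 were listed in the table and 15 were tested. Members of the same cluster, such as miR-221-3p and miR-222-3p, are counted separately, so the 15 are not independent. All 15 were called higher than with the empty plasmid by edgeR with wild type (median log2 fold change 4.84), with m4 (2.85) and with belt deletion (3.59, where total counts called 14). Over all 318 miRNAs, 44.7%, 40.9% and 44.3% were called higher in these comparisons, with medians of 0.86, 0.86 and 0.80. The low-count filter asks for enough reads in only as many libraries as 1 group holds. A miRNA could thus pass through the groups with DROSHA alone, where it was high. The lowest empty-plasmid mean of a tested list member was 0.221 scaled reads, against 26.0 with wild type. The counts over the empty plasmid are therefore partly set by the filter. A miRNA high mainly with wild type could pass in the same way, which can affect the counts against wild type too. For example, miR-135b-5p averaged 26.0 scaled reads with wild type, 10.1 with m4 and 9.41 with belt deletion. With m4, 14 of the 15 were called lower than with wild type (median -1.99), or 6 under total counts, where over all miRNAs 35.8% were called lower and the median was -0.25. With belt deletion, 5 of 15 were called lower than with wild type and none higher (median -0.66), beside 9.43% called lower and a median of 0.02 over all miRNAs, and miR-21-5p was not among them. Belt deletion against m4 gave 8 of 15 called higher (median 1.30), or 6 higher and 2 lower under total counts, beside 26.4% called higher and a median of 0.16 over all miRNAs, and miR-21-5p had the highest value (3.33). With wild type, miR-21-5p was the most abundant of the list. After it came miR-222-3p, with 3162 ± 284 scaled reads with belt deletion, 1221 ± 490 with m4, 3078 ± 1132 with wild type and 121 ± 14.1 with the empty plasmid (SD, n = 3 each). The next was miR-221-3p, from the same cluster, with 711 ± 95 scaled reads with belt deletion, 181 ± 60.6 with m4, 2638 ± 809 with wild type and 64.4 ± 10.1 with the empty plasmid. miR-221-3p was lower with belt deletion than with wild type (log2 fold change -1.89, SE 0.33, adjusted p = 6.81e-06 by edgeR).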

How the data were processed

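TRIzol was used for RNA extraction and a NEBNext kit for the small RNA libraries, per the labels' protocols. The authors deposited unnormalised read counts, with a line for each mature miRNA of a hairpin. The tools cutadapt and Bowtie2 and the build hg38 are named, per the submitters' processing notes. Versions, settings, the annotation, the use of strand and the treatment of reads that match several hairpins are not given in the sources used here. The 7220 blank cells were read as 0. Where a mature name had several lines, which often repeat the same reads, its highest line was kept, and 9 pairs of names that hold equal reads (within 5 reads or 5% in each library) were merged, which left 1277 miRNAs. Size factors were median ratios over 5 DROSHA-independent features with at least 20 reads in each library, of 10 listed.

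Levels were tested with edgeR 4.0.16 (quasi-likelihood, all 12 libraries in 1 fit, filterByExpr) in R 4.3.3, and arm ratios with limma 3.58.1 on log2 values with a pseudocount of 0.5. The call threshold was an adjusted p of 0.05, with Benjamini-Hochberg adjustment over all miRNAs or hairpins tested. Permutation tests were exact and two-sided, and 3 against 3 cannot go below 0.1. The Wilson intervals were computed with scipy 1.17.1. Folding used RNAfold 2.7.2. The scripts were tested on simulated data. Alternatives covered scaling (TMM, DESeq2 1.42.0 size factors, total counts, sum of the reference), filters, the test, the repeat number as a block and each library left out. The members and lists were chosen with earlier results of these data known. Other miRNAs were named by rule: the 5 profiles nearest to each arm, miRNAs with its seed, the 3 most abundant of the colorectal list, the most abundant other miRNA, the reference features and the neighbours in arm ratio. The markers of other cell types were named as well. Values of miR-93-5p, named under the profile rule, also stand in the colorectal list.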

Additional observations from a re-analysis of the deposited data

How the results depend on the processing

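For the 54 results on the 2 arms (shares, ratios and fold changes in 6 comparisons), 650 of 678 alternatives kept the direction and the side of the threshold, 8 kept the direction but lost a call, 7 gained one and 13 changed sign. For the shares and the ratios to the reference or to the other miRNAs, only the direction was compared. Their exact permutation p was never below 0.1, so no call could be lost or gained there. Belt deletion against wild type had no call for either arm. For miR-21-5p its small differences changed sign. The share difference was -0.728 percentage points, but 0.333 of all reads in the deposited table, 2.23 of reads outside the reference, and -4.26 to 2.37 when libraries were left out in turn. The log2 ratio to the reference ran from -0.61 to 0.14 and the fold change from -0.39 to 0.09 with libraries left out. The fold change was 0.05 with TMM, and the ratio to the geometric mean of the other miRNAs was -0.02. For belt deletion against m4, the share difference of miR-21-3p was 0.00877 percentage points, but -0.0117 of reads outside the reference and -0.00123 to 0.0148 with libraries left out. Its log2 ratio to the other miRNAs ran from -0.06 to 0.95, the lowest without m4 repeat 2. Its fold change was 0.46 with total counts and 1.06 with the reference sum, neither called by edgeR.

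The 5p to 3p ratio of belt deletion over the empty plasmid stayed at 1.75 with a replicate block, but its adjusted p by limma became 0.0585, and with libraries left out it was 1.65 to 1.92 (adjusted p up to 0.0775). Wild type over the empty plasmid, 1.22, was called with hairpins that share reads left out and without m4 repeat 2 (adjusted p = 0.0129 by limma), and ran from 0.97 to 1.47 with libraries left out. m4 against the empty plasmid ran from -0.42 to 0.58 and m4 against wild type from -1.64 to -0.64. Belt deletion over m4, 1.60, was called with a mean of at least 50 reads per arm (adjusted p = 0.0349 by limma), with the hairpins that share reads left out, and with the 5 whose arms hold the same reads left out (adjusted p = 0.0460), an alternative chosen after seeing the data. It ran from 1.17 to 2.17 with libraries left out, the highest and a call (adjusted p = 0.00225) without m4 repeat 2. The cause of these changes was not tested.

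Repeat numbers did not pair the libraries (correlations of deviations -0.255 to 0.139 between libraries of the same number), and the block changed no other call. Scaling moved all miRNAs: the median log2 fold change of wild type over the empty plasmid shifted by -0.98 with TMM, -0.76 with DESeq2 size factors, -0.95 with total counts and 0.39 with summed reference reads. Calls there were 142 higher and 2 lower, against 126 and 92 with TMM (218 in all, compared with 144), 126 and 67 with DESeq2 size factors and 123 and 71 with total counts. They were 130 and 3 for m4 over the empty plasmid, against 84 and 19 with TMM, and 141 and 1 for belt deletion, against 115 and 43 with TMM, 115 and 35 with DESeq2 size factors and 109 and 33 with total counts. For m4 against wild type they were 12 and 114, against 42 and 99 with TMM, 38 and 98 with DESeq2 size factors and 133 and 60 with total counts (193 in all, compared with 126). For belt deletion against m4 they were 84 and 4, against 47 and 121 with total counts (168 in all, compared with 88). For belt deletion against wild type they were 10 and 30, against 26 and 29 with TMM and 18 and 34 with DESeq2 size factors. The low counts of miR-21-3p, 10 to 160 reads, limit every value that rests on it.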
